A study of Mus musculus with 502 samples.

Results

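Silencer arrays of 293T cells were short stretches of the genome in which at least 4 silencers of the 293T list lay in a row. Silencers on chromosomes 1 to 22 were sorted by position and joined into runs wherever the gap between neighbours, from the end of one to the start of the next, was at most 500 bp. Runs of 4 or more were taken as arrays. The rule found 204 arrays with 846 member silencers, out of 119180 silencers on the autosomes of 293T and 397136 silencers in the lists of all 3 cell lines. The members were thus chosen by the positions of the 293T silencers themselves, and their closeness and number are given below as a description only.

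The silencers had been mapped by Ss-STARR-seq, a reporter assay in which sheared human genomic fragments of 300 to 400 bp are cloned into a plasmid, transfected, and compared between the plasmid DNA (input) and the RNA made from it (output). The labels give 102 output RNA libraries and 1 input DNA library for 293T, a line derived from human embryonic kidney. For reference there were 180 output RNA libraries of K562, a leukaemia line with erythroid features, and 179 output RNA and 40 input DNA libraries of LNCap, a prostate cancer line. No treatment is named, each line is represented by 1 deposited list with no replicate list, and all libraries are labelled as mouse although the lines and the build, hg38, are human. The read depth behind a silencer is unknown. The lists were therefore compared by position and by the authors' activity score, and nothing could be set against replicate error.

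A silencer is a stretch of DNA that lowers transcription from a promoter placed near it, usually by binding repressor proteins that recruit corepressors and histone-modifying enzymes. REST, which keeps neuronal genes silent outside neurons, and the zinc finger proteins that recruit TRIM28 are well-known repressors of this kind. Binding sites of regulatory proteins often lie in groups, so that neighbouring short elements can belong to 1 regulatory region. In a reporter assay each fragment is measured outside its chromosome, so the deposited scores describe what a fragment does on a plasmid.

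Most arrays held the fewest silencers that the rule admits. There were 179 arrays of 4 silencers (87.7%), 21 of 5, 3 of 6 and 1 of 7. From the first start to the last end an array measured 714 bp in the median, with quartiles of 550 and 904 bp and extremes of 350 and 1592 bp. Only 12 of the 204 arrays (5.88%) were no longer than 400 bp, the longer of the stated fragment lengths, whereas 29 (14.2%) were longer than 1000 bp. Most arrays were thus longer than a single cloned fragment.

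Inside the arrays, called and uncalled sequence mostly alternated in steps of 50 bp: 595 of the 642 gaps (92.7%) and the widths of 769 of the 846 members (90.9%) were multiples of 50 bp. Silencers covered 44.5% of an array in the median, with a range of 20.0% to 80.0%, and 68.6 kb in all. Of the gaps, 316 (49.2%) measured exactly 50 bp and 111 (17.3%) exactly 100 bp, and none was shorter than 50 bp. The members were 50 to 400 bp wide, and 543 of the 846 (64.2%, 95% Wilson interval 60.9 to 67.3) measured exactly 50 bp, against 64.5% of the other 293T silencers. Only 11 members were wider than 300 bp. Members of arrays were thus not wider than silencers elsewhere in the list, with a mean width of 81.1 bp in arrays and 83.2 bp outside. In arrays built by the same rule, gaps of exactly 50 bp made up 46.3% for K562 and 47.4% for LNCap. Multiples of 50 bp were not counted over the whole list, so these steps cannot be called particular to the arrays of 293T.

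The rule cuts through a continuous range of spacings. Just inside the limit, 17 gaps within arrays and 312 gaps in the whole autosomal list measured 451 to 500 bp, and just outside it 299 gaps measured 501 to 550 bp. With the limit at 450 bp there were 189 arrays, and at 550 bp there were 218. Just below the smallest array stood 1478 runs of 3 silencers, next to 12847 runs of 2 and 88206 single silencers.

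The array with most silencers lay on chromosome 8 (33941782 to 33942903). Its 7 members scored 2, 2, 2.2, 2.3, 2.5, 3.8 and 2.1 in order along the chromosome. A single member, the sixth, thus stood well above the others, and none of the 7 overlapped a silencer of K562 or LNCap. Lack of overlap was common in the list, where 6.09% of all autosomal 293T silencers overlapped either line. The 6 members of the array on chromosome 14 (64063701 to 64064701) scored 2, 2.4, 2.7, 2.1, 2 and 2.3, in 2 groups of 3 separated by 400 bp.

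The array of 6 on chromosome 4 (39106585 to 39107542) had the most members that overlapped LNCap silencers. Its scores were 2.2, 2.6, 2.2, 2.4, 2.5 and 2.4, so that the members differed by at most 0.4. The first 5 of the 6 members overlapped LNCap silencers and the first also overlapped K562. In LNCap the same place held an array of 5 silencers (39106551 to 39107476) with a median score of 2.7. The remaining array of 6, on chromosome 1 (10147851 to 10148751), scored 2.4, 2.4, 2.1, 2.4, 3.1 and 2.1, and 1 member overlapped LNCap.

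Among the arrays of 5, the longest of all arrays lay on chromosome 19 (15078987 to 15080579, 1592 bp). Its members scored 2.3, 2.5, 2.3, 4.5 and 2.7, the member with 4.5 being far above its neighbours, and the last 2 overlapped LNCap silencers. On chromosome 20 (232801 to 234365) an array close to the start of the chromosome scored 2, 2.3, 2.4, 2.2 and 2.4. An array on chromosome 8 (119737501 to 119738901) scored 2.3, 2.5, 2.5, 2.1 and 2. No member of the arrays on chromosomes 20 and 8 overlapped a silencer of another line, which was common in the list (6.09% of all autosomal silencers overlapped either).

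The arrays with the highest scores were compact and had 4 members each. The highest median score, 4.75, belonged to an array on chromosome 22 (46644701 to 46645101), whose members scored 4.3, 5.7, 5.2 and 2.9 at gaps of 50 bp throughout. It was also the only array on chromosome 22. An array on chromosome 9 (6832300 to 6832801) had scores of 3.6, 3.6, 4.5 and 4, so that all of its members stood far above the list's median of 2.3. On chromosome 1 an array at 9999741 to 10000238 scored 3.8, 3.8, 3.6 and 2.6, and one at 5703789 to 5704139 scored 4, 3.2, 5.2 and 2.5. The array on chromosome 7 (44699289 to 44699889) scored 3.1, 3.9, 4.1 and 2. Its median of 3.5 was tied with that of a shorter array on chromosome 3 (60971401 to 60971801), which scored 3.5, 3.7, 3.4 and 3.5. Of the members of these arrays, the second of the array at 5703789 overlapped silencers of K562 and LNCap, and no other member overlapped either. With 6.09% of all autosomal 293T silencers overlapping either line, this lack of overlap cannot be called particular to these arrays.

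**Figure D1:**
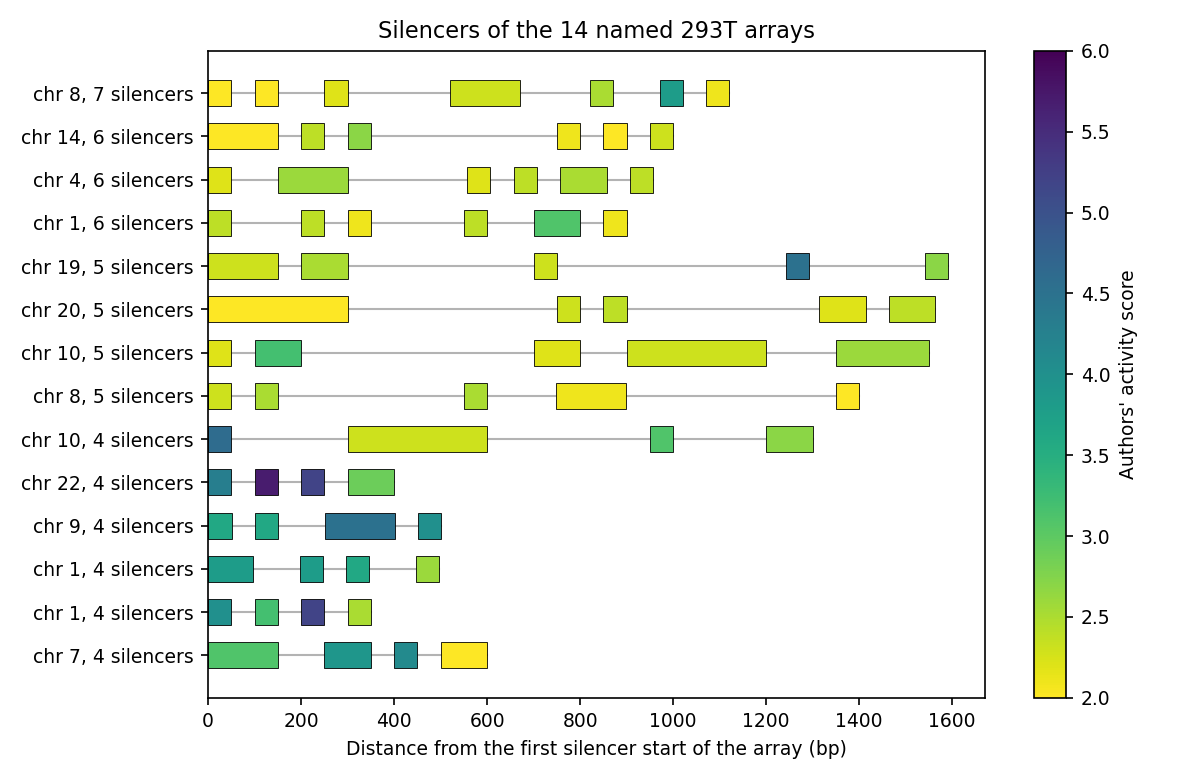
Each row is 1 of the 14 named 293T arrays, with boxes for its silencers at their distance in bp from the start of the array (horizontal axis) and coloured by the authors' activity score. The top 8 rows hold the arrays with most silencers, the ninth row the array that met arrays of both other lines, and the bottom 5 rows the arrays with the highest median scores, which span 350 to 600 bp.

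Array members scored somewhat higher than other silencers of the list. The score is the authors' own, its scale is not stated, and the lowest deposited value is 2. Members had a median of 2.4 (quartiles 2.1 and 2.9, highest 6.6, n = 846), and the other autosomal silencers had a median of 2.3 (quartiles 2.1 and 2.6, highest 10.4, n = 118332 finite scores). A score above 2.3 was found for 459 of 846 members (54.3%, 95% Wilson interval 50.9 to 57.6), against 43.6% (43.3 to 43.9) of the other silencers and 43.7% of all 119180. Scores of 4 or more were found for 43 members (5.08%, interval 3.80 to 6.78), against 2.67% (2.58 to 2.76) of the others and 2.69% of all. No member had an infinite score.

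The mean score was higher in members than in other silencers on 18 of the 21 autosomes that held arrays. Among silencers of exactly 50 bp the share above 2.3 was 53.8% of members (interval 49.6 to 57.9) and 43.4% of others, so silencers of equal width differed likewise. The intervals treat silencers as independent although members of 1 array share a place in the genome. They cover counting error only, and no replicate list was there to test the difference.

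This difference was not particular to arrays. The share of silencers above 2.3 was 41.2% for single silencers, 50.4% in runs of 2, 52.3% (interval 50.9 to 53.8) in runs of 3 and 54.3% in arrays. Most of the step thus lay between a silencer on its own and one with a single neighbour, and the intervals of runs of 3 and of arrays overlapped. Scores of 4 or more followed the same order, at 2.30%, 3.71%, 4.08% and 5.08%.

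Within an array the scores were far from uniform. The highest and the lowest score of an array differed by 1 in the median, with quartiles of 0.6 and 1.525 and extremes of 0.1 and 4.5. The SD of scores within an array averaged 0.513, and the SD among the means of the 204 arrays was 0.388. The first is a spread of single scores and the second a spread of means, so they cannot be set against each other directly. In 24 arrays every member scored above 2.3, in 16 arrays none did, and the remaining 164 arrays held scores on both sides of it.

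Silencers inside an array scored higher than those at its ends. The 438 inner members had a median score of 2.5 (mean 2.68 ± 0.69, SD), and the 408 members at the ends had a median of 2.3 (mean 2.54 ± 0.61, SD). In the 179 arrays of 4, the medians were 2.3, 2.5, 2.6 and 2.4 from the first to the last place. The inner members had the higher mean in 120 of the 204 arrays (58.8%, interval 52.0 to 65.4), the ends in 79, and 5 arrays were level. The difference per array averaged 0.15 with an SD of 0.64, so single arrays varied far more than the average difference.

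Inner and end members had the same mean width of 81.1 bp. In runs of 3, which are no arrays, the middle silencer had a median of 2.5 and the ends 2.3, and the middle was higher in 791 of 1478 runs (53.5%, interval 51.0 to 56.0). The inner members were higher in 168 of 294 LNCap arrays (57.1%, 51.4 to 62.7) and in 129 of 240 K562 arrays (53.8%, 47.4 to 59.9), both built by the same rule. In the 39 arrays of 293T in which all silencers measured 50 bp, the inner members were higher in 20 and lower in 18.

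**Figure D2:**
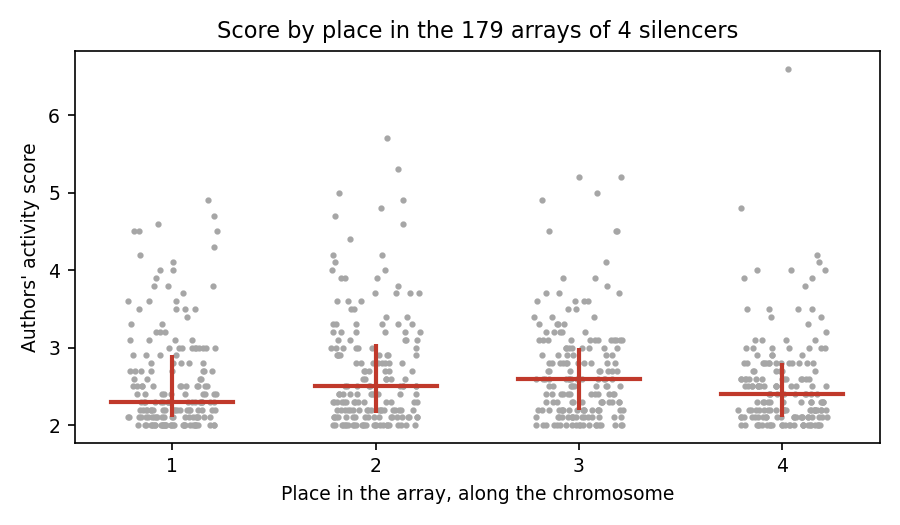
Each grey point is 1 silencer of the 179 arrays of 4 in 293T, by its place in the array (horizontal axis) and the authors' activity score (vertical axis). Red horizontal lines mark the medians, 2.3, 2.5, 2.6 and 2.4 from place 1 to place 4, and red vertical lines the quartiles, which overlap between places.

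Array members started at 0 or 1 modulo 50 somewhat more often than other silencers, but members of 1 array mostly shared their offset. Starts at 0 or 1 modulo 50 made up 535 of 846 members (63.2%, interval 59.9 to 66.4), against 58.3% (58.0 to 58.5) of the other silencers and 58.3% of all. Runs of 3 were at 62.8% and single silencers at 57.2%. In 132 of the 204 arrays (64.7%) all members shared 1 start offset within the 50 bp grid, 62 arrays held 2 offsets and 10 held 3. In 117 arrays (57.4%) every start was at 0 or 1 modulo 50, and in a further 32 arrays all members shared another single offset. The interval over the 846 members treats them as independent and is therefore too narrow. The difference from other silencers was not tested.

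The study asked how specific silencers are to a cell line. Array members overlapped silencers of the other lines slightly more often than other 293T silencers did, but the counts could not separate the groups firmly. For LNCap the overlap, of at least 1 bp, was 45 of 846 members (5.32%, interval 4.00 to 7.04), against 3.57% (3.46 to 3.67) of other silencers and 3.58% of all. For K562 it was 36 members (4.26%, interval 3.09 to 5.83), against 3.29% (3.19 to 3.40) of others and 3.30% of all. The K562 difference was within counting error. Here and below, the intervals over members treat the members of 1 array as independent and are therefore too narrow.

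The LNCap difference rested in part on a few places. Without the chromosome 4 array of 6, the share was 40 of 840 members (4.76%, interval 3.52 to 6.42), an interval that includes the 3.57% of other silencers. Without chromosomes 17 and 19 it was 3.79% of members against 3.35% of others for LNCap, and 3.37% against 3.12% for K562. The share overlapping LNCap was higher in members than in others on 11 of 21 autosomes, and that overlapping K562 on 7 of 21. Silencers of both other lines were met by 14 members (1.65%, interval 0.988 to 2.76), against 0.785% of others and 0.791% of all. Without chromosomes 17 and 19 this was 7 of 712 members (0.983%, interval 0.477 to 2.02), against 0.706% of others, a difference within counting error.

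Sharing was also above that of single silencers in shorter runs. Overlap with K562 was 3.05% for single silencers, 3.94% in runs of 2, 4.29% in runs of 3 and 4.26% in arrays. Overlap with LNCap was 3.31%, 4.35%, 4.06% and 5.32% in the same order. The 67 members that overlapped either line (7.92%, interval 6.28 to 9.94, against 6.07% of other silencers and 6.09% of all) had a median score of 2.6 and a mean width of 105 bp. The 779 members that overlapped neither had a median score of 2.4 and a mean width of 79.0 bp. A wider silencer meets the criterion of 1 bp more easily, but the part of width in these differences was not tested.

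**Figure D3:**
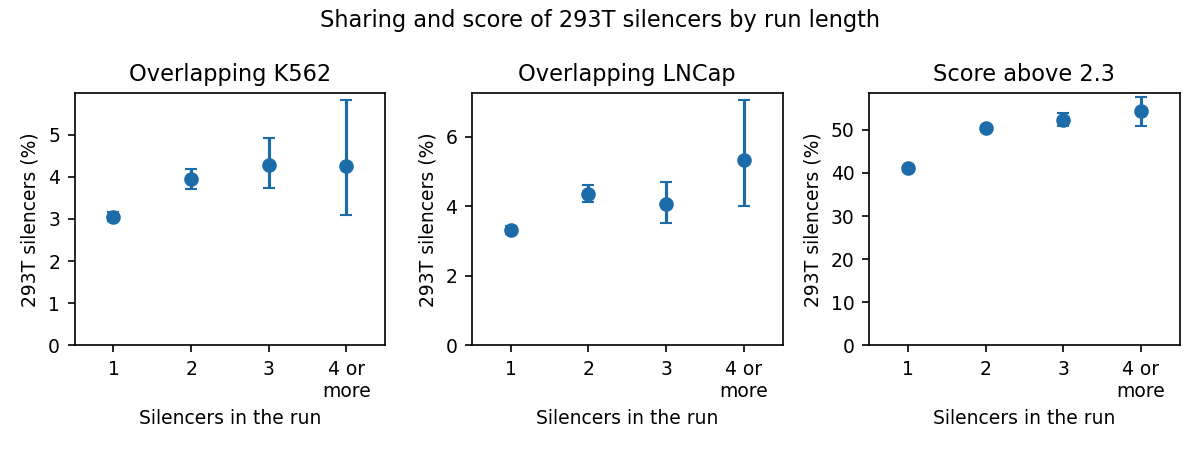
Points give the percent of 293T silencers (vertical axes, from 0) that overlapped a K562 silencer, overlapped a LNCap silencer or scored above 2.3, by the number of silencers in the run (horizontal axes), with 95% Wilson intervals. The largest steps for K562 and for the score lie between single silencers and runs of 2 (3.05% and 3.94% for K562, 41.2% and 50.4% for the score), and the intervals of runs of 3 and of arrays overlap in each panel.

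Overlap was also counted by array. At least 1 member overlapped a K562 silencer in 25 of 204 arrays (12.3%, interval 8.44 to 17.5) and a LNCap silencer in 31 (15.2%, 10.9 to 20.8). Either line was met in 44 arrays (21.6%, 16.5 to 27.7). These shares are per array of 4 to 7 silencers and cannot be set against the 6.09% per silencer over the whole list. At least 2 members overlapped K562 in 10 arrays and LNCap in 8. With 1 list per line, failure to detect a silencer and its absence from a line cannot be told apart.

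Few arrays of 293T met an array of another line. How often other 293T silencers meet such arrays was not counted, so the low shares cannot be called particular to arrays. By the same rule K562 had 240 arrays with 1037 members and LNCap 294 arrays with 1250 members. The spans of 3 of the 204 arrays of 293T (1.47%) met a K562 array, which is 1.25% of the K562 arrays, and the spans of 2 (0.980%) met a LNCap array, which is 0.680% of the LNCap arrays. Between the other lines, 17 of the 240 K562 arrays (7.08%, interval 4.47 to 11.0) met a LNCap array, and 16 of the 294 LNCap arrays (5.44%, interval 3.38 to 8.66) met a K562 array. The interval for 293T arrays in K562, 0.501 to 4.23, overlapped the second of these and not the first.

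The single array that met arrays of both other lines lay on chromosome 10 (38521351 to 38522651). Its 4 members scored 4.6, 2.3, 3.1 and 2.7, so the first was the strongest, and 3 of the 4 overlapped a silencer of K562 or LNCap. K562 held an array of 6 silencers there (38520400 to 38522476, median score 2.55), and LNCap an array of 6 (38520350 to 38522251, median score 2.65). The largest K562 array, with 11 silencers, lay on the same chromosome at 38576800 to 38581400.

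The other arrays with a K562 counterpart lay on chromosomes 10 and 17. The array of 5 on chromosome 10 (42300551 to 42302101) scored 2.2, 3.2, 2.2, 2.3 and 2.6, and the second, the fourth and the fifth members overlapped K562 silencers. The K562 array of 5 there (42301447 to 42303211) was shifted along the chromosome and had a median score of 2.6. The array of 4 on chromosome 17 (26790911 to 26792151, median score 2.95) met a K562 array of 4 (26790201 to 26791001, median score 2.7). These counterparts thus overlapped only in part and were not copies of one layout.

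The largest arrays of 293T were smaller than those of the other lines. The most silencers in an array were 7 for 293T, against 11 for K562 and 14 for LNCap. Arrays of 8 or more numbered 0 for 293T, against 6 for K562 and 3 for LNCap. The longest array measured 1592 bp in the 293T list, whereas K562 had one of 4600 bp and LNCap one of 5500 bp. Median spans were closer, at 714, 780 and 800 bp. Of the autosomal silencers, arrays held 0.710% in the 293T list, against 0.807% for K562 and 0.949% for LNCap.

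Chromosomes 19 and 17 held a larger share of the array members than of all silencers. On chromosome 19, 77 of 3408 silencers were in arrays (2.26%, interval 1.81 to 2.81), and on chromosome 17, 57 of 3658 (1.56%, interval 1.20 to 2.01), against 0.710% over all autosomes. Together they held 33 of the 204 arrays (16.2%) and 5.93% of the autosomal silencers. The excess depended on the rule too: chromosome 19, with 2.86% of all silencers, held 9.10% of the members but 4.41% with runs of 3 included and 3.85% in runs of 5 or more, and chromosome 17, with 3.07% of all silencers, held 6.74%, 4.49% and 3.85%. Each share in runs of 5 or more is that of a single array of 5, which is too few to show a dependence. The autosomes other than 17 and 19 were at 0.635%. Chromosome 3, with 77 members in 19 arrays as on chromosome 19, was at 0.853% because it holds 9025 silencers.

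The density of a chromosome and its share in arrays were loosely related. Chromosome 19 was also the densest in 293T silencers, with 58.2 per Mb, but chromosome 17 was of middling density with 43.9 per Mb, and chromosome 4, the second densest with 49.4 per Mb, was at 0.501% in arrays. Over the 22 autosomes the Spearman correlation between the share in arrays and the silencers per Mb was 0.42 and Pearson's correlation was 0.63, as a description of points that come from 1 list. K562 and LNCap arrays also took larger shares of chromosomes 19 (1.73% and 1.71%) and 17 (1.49% and 1.52%). Over all 22 autosomes, however, the shares in arrays were only weakly related between lines. The Spearman correlation was 0.13 between 293T and K562 and 0.11 between 293T and LNCap. On chromosome 19 all 3 lists had intervals above their own share over all autosomes.

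Chromosome 12 was low, with 12 of 6031 silencers in 3 arrays (0.199%, interval 0.114 to 0.347). K562 and LNCap were at 0.736% and 0.715% there. The low share depended on the rule: chromosome 12 held 1.42% of the members and 5.06% of all silencers, but 5.63% of the members once runs of 3 were included.

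Chromosome 21 had no 293T array. None of its 1177 silencers was in a run of 4, although 11 runs of 3 were present. The limit of 3 counts, a share of 0.255%, treats silencers as independent. Members come in groups of at least 4, so this limit is too low. The chromosome held 0.988% of the autosomal silencers, and chromosome 22, with 1296 silencers, held 1 array. Absence of arrays and a low count of them thus cannot be told apart here. In K562, 55 of 1481 silencers of chromosome 21 were in 11 arrays (3.71%, interval 2.86 to 4.80), and in LNCap 41 of 1440 in 7 arrays (2.85%, interval 2.11 to 3.84), the highest shares of any autosome in those lists. Of these arrays, 9 of the 11 in K562 and 6 of the 7 in LNCap lay in the first 13 Mb. The 293T list held 78 silencers in those 13 Mb, against 149 in K562 and 132 in LNCap. The largest LNCap array, with 14 silencers, was among them (10683201 to 10688701). How uniquely reads map there was not tested, and nor was the difference between lists.

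**Figure D4:**
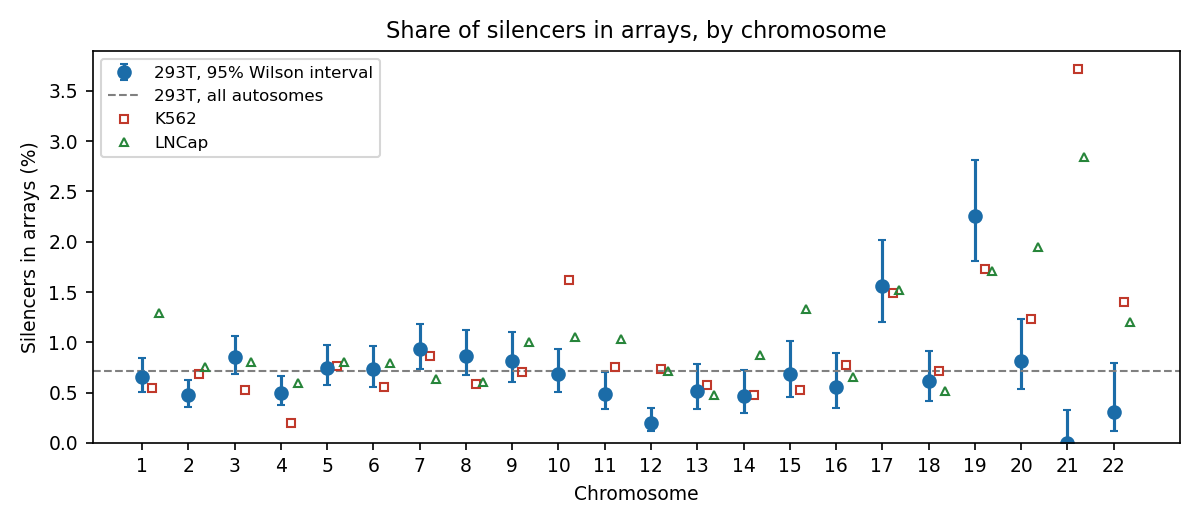
Filled circles give the percent of the 293T silencers of each autosome (horizontal axis) that were in arrays (vertical axis, from 0), with 95% Wilson intervals; the dashed line is the value over all autosomes, 0.710%, and open squares and triangles are K562 and LNCap. Chromosomes 19 and 17 stand above the line in 293T, and chromosome 21 is at 0 in 293T but at 3.71% in K562 and 2.85% in LNCap.

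The surroundings of the arrays were richer in silencers of the other lines. The midpoint of at least 1 K562 silencer lay within 1 kb of an array, outside its span, beside 40 of 204 arrays (19.6%, interval 14.7 to 25.6), against 12.5% (12.3 to 12.7) of single 293T silencers. For LNCap this was 42 arrays (20.6%, interval 15.6 to 26.7), against 13.04% (12.8 to 13.3) of single silencers. Runs of 3 stood between, at 14.01% for K562 and 14.7% for LNCap. Without chromosomes 17 and 19 the arrays were at 16.96% for both lines (interval 12.1 to 23.3), against 12.0% and 12.5% of single silencers for K562 and LNCap. The intervals then included the LNCap value or came close to the K562 value, so the difference was smaller off these chromosomes.

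Within 10 kb, K562 silencers lay beside 67.6% of arrays (interval 61.0 to 73.7), against 60.3% of single silencers, and LNCap silencers beside 71.1% (64.5 to 76.9), against 60.5%. Without chromosomes 17 and 19, the K562 share was 63.7% of arrays (interval 56.3 to 70.6), which includes the 59.3% of single silencers, and the LNCap share was 67.8% (60.5 to 74.4), against 59.4%. Other 293T silencers lay within 10 kb of 63.2% of arrays (56.4 to 69.6), against 56.1% of single silencers, and off these chromosomes of 60.2% (52.8 to 67.3), which includes the 55.6% of single silencers. Within 100 kb on either side, arrays had a mean of 14.5 K562 silencers (SD 10.3, n = 204), against 10.8 (SD 6.3, n = 88206) for single silencers, and 14.9 LNCap silencers (SD 9.2) against 11.0 (SD 6.7). The 293T silencers outside the array but within 100 kb averaged 12.6 (SD 6.2) around arrays, against 9.91 (SD 4.76) around single silencers. Arrays and single silencers were themselves chosen by the spacing of 293T silencers. The 293T values at 10 kb and 100 kb are therefore a description only. Without chromosomes 17 and 19 the means were 12.8 against 10.4 for K562, 13.2 against 10.6 for LNCap and 12.1 against 9.78 for 293T. These means differed by less than the SD among arrays, which is the spread of single arrays and not the error of a mean. The differences between means were not tested.

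Arrays were dispersed along the chromosomes. Neighbouring arrays of a chromosome lay 7104 kb apart in the median, with quartiles of 2515 and 14653 kb, and 3 of 183 neighbouring pairs lay under 100 kb apart. The closest pair, on chromosome 19 (11948313 to 11949607 and 11976270 to 11977264), was separated by 26663 bp. The 204 arrays lay in 195 different 1 Mb bins, of which 9 held 2 arrays and none held more.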

How the data were processed

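Each of the 3 cell lines has 1 deposited list of silencers, giving position and activity, per the file headers. Activity is the authors' score, with 1 decimal or infinite; its scale is not stated. Bowtie2, SAMtools and hg38 are named per the submitters' processing notes, without versions or roles. How silencers were called, at which thresholds and over which libraries is not given in the sources used here. Nor do the files say if the first base has number 0 or 1.

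Lines were left out where fields were cut or joined, the chromosome was unknown, or the width was below 1 bp or above 5000 bp (58 for 293T, 12 for K562, 25 for LNCap). A broken line can split a run. Overlap meant at least 1 bp. Shares carry 95% Wilson intervals, which cover counting error only. With 1 list per line no test was made, and depth is unknown. Array building and overlap were tested on simulated data.

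The arrays, lists and comparisons were chosen with earlier results of these data known. Arrays were named by 3 rules: the 8 with most silencers (ties by longer span, then by position), the 5 with the highest median score (ties by more silencers, then by longer span), and those meeting arrays of both other lines. Chromosomes 12, 17, 19 and 21, the 13 Mb limit, the closest pair, the chromosome 17 array and the comparison of inner with end members were chosen after their values were seen. A human genome and annotation were not used here, so genes, base composition, repeats, motifs and sequences were not analysed. The versions were Python 3.11.15, pandas 2.3.3, numpy 2.4.6, matplotlib 3.10.9 and scipy 1.17.1.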

Additional observations from a re-analysis of the deposited data

Results flagged for a closer look

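The rule for arrays covers the autosomes, and chromosome X lies outside it. On X the same spacing gave 8 runs of 4 or more silencers in 293T, which no comparison above uses. They held 34 of 6064 silencers (0.561%, 95% Wilson interval 0.402 to 0.782), near the 0.710% of the autosomes. There were 6 runs of 4 and 2 runs of 5, with spans of 600 to 1172 bp and median scores of 2.1 to 2.9. Of the 34 silencers, 3 overlapped a K562 silencer and 2 a LNCap silencer. Overlap was not counted over all 6064 silencers of X, so these counts cannot be called high or low.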

How the results depend on the processing

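The number of arrays is set by the rule. It was 124 with gaps up to 250 bp, 341 with gaps up to 1000 bp, 1682 with runs of 3 included, 25 with runs of 5 or more only and 29 with silencers above the median score only, holding 512, 1445, 5280, 130 and 117 members; keeping every readable line changed neither count. The share of members overlapping K562, LNCap, either and both was 2.84%, 3.55%, 5.44% and 0.946% when at least 50% of the silencer had to be covered, and 16.3%, 17.5%, 27.5% and 6.26% with midpoints within 500 bp. In runs of 5 or more, 9.23% overlapped LNCap, 13.1% either line, and 76.9% started at 0 or 1 modulo 50. The chromosome 4 array of 6 supplies 6 of these 130 members, and 5 of its members are among those that overlap LNCap. It thus weighs more in the LNCap and either-line shares than in the number of members. No array met an array of another line at gaps up to 250 bp (0% of 124). The share of members on chromosome 19, 9.10%, was 4.41% with runs of 3, 3.85% with runs of 5 or more and 7.20% at 1000 bp; that on chromosome 17, 6.74%, was 4.49% with runs of 3 and 3.85% with runs of 5 or more; that on chromosome 12, 1.42%, was 5.63%, 0% and 3.599%. The 3.85% on chromosome 19 and on chromosome 17 was a single array of 5 on each. Inner members were higher in 80.0% of the 25 arrays of 5 or more. The cause was not tested. The other 43 of 74 alternative values moved by less than their counting interval or, for counts, by less than 1.5 times. Leaving out the chromosome 4 array and the alternatives for inner members were chosen after seeing the data. Alternatives that need a human genome or annotation were not run. No paired analysis was possible because each line has 1 list, which carries no library numbers, and no result comes from a test.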
